A study of Mus musculus with 4 samples.

Results

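Loops that stay inside a single gene body were drawn from Hi-C maps of whole mouse uterus. A loop was taken when its anchors, the segments of DNA that it joins, lay more than 60 kb apart and both lay wholly inside the body of the same RefSeq protein-coding gene on mm10. The 4 lists together hold 59353 loops, and 2436 of them met this rule, each list counted on its own. They numbered 934 in the ERα knockout, 485 after progesterone, 659 in vehicle replicate 2 and 358 in vehicle replicate 3.

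The ERα knockout library came from females labelled Ex3aERKO, which lack estrogen receptor alpha (encoded by Esr1), and that received saline vehicle (replicate 1). The wild-type libraries were 1 after progesterone (replicate 2) and 2 after saline vehicle (replicates 2 and 3). The progesterone dose was 1 mg, injected subcutaneously in 100 ul of sesame oil, and saline (100 ul) was injected intraperitoneally, so the progesterone library differs from vehicle in carrier and route as well. All mice were C57BL/6J females of more than 10 weeks of age whose ovaries had been removed 10 to 14 days earlier, and the uterus was frozen 1 h after the injection. Single animals, pools and separate animals are not told apart in the sources used here. The progesterone and knockout groups are 1 library each, so no test between conditions was made. Whole uterus mixes muscle, stroma, epithelium, vessels and immune cells, and a loop cannot be assigned to any of them. Loop positions give no level for any marker, and none of 14 stromal marker genes was long enough to hold a loop of this kind, so the tissue label was not checked.

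The lists held 21829 loops in the knockout, 11752 after progesterone, 16387 in vehicle replicate 2 and 9385 in vehicle replicate 3. The depth of the libraries is unknown, and a loop that is not listed was not called, which does not show that it was absent. Longer lists leave more loops that no other list holds, and this touches every count of differing loops below. Intervals are exact Clopper-Pearson 95% intervals. They cover counting error only, and loops in 1 gene share anchors and are not independent.

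As background, loops of this size are made by cohesin, a ring complex that extrudes chromatin until it meets the DNA-binding protein CTCF, and others join promoters to enhancers. A very long gene can therefore hold several loops within its own body, with anchors at introns, enhancers or start sites of shorter transcripts. Long genes commonly have such internal promoters. Genes for ion channels, cytoskeletal scaffolds and adhesion molecules of muscle and nerve are among the longest in the genome.

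Sequences are shown for start sites at or next to the anchors described below. RefSeq windows (GRCm38.p6) run from 250 bases before an annotated start to 50 bases from it on, 5′ to 3′ on the strand of the gene, and capitals mark the bases from the start on. Prkg1 (19:31764984-31765283, minus strand) is shown for its first start, which lay within 10 kb of an anchor in all 4 lists. Internal windows were chosen after their values were seen. Esr1 (10:4709908-4710207, plus strand), Cacna1c (6:119108446-119108745, minus strand), Zfhx3 (8:108714394-108714693, plus strand) and Mbnl1 (3:60500929-60501228, plus strand) are shown for internal starts that lay inside a loop anchor.
Prkg1: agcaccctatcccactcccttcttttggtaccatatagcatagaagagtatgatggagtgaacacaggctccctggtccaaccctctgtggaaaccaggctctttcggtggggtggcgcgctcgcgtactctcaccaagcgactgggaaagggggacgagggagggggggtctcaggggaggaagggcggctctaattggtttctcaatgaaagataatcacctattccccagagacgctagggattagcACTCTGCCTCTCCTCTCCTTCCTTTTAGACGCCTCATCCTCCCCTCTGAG
Esr1: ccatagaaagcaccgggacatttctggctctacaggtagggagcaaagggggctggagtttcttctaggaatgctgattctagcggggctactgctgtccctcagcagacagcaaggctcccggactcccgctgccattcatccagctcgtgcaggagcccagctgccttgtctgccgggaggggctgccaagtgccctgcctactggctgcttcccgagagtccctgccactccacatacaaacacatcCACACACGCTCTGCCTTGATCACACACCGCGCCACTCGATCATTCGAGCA
Cacna1c: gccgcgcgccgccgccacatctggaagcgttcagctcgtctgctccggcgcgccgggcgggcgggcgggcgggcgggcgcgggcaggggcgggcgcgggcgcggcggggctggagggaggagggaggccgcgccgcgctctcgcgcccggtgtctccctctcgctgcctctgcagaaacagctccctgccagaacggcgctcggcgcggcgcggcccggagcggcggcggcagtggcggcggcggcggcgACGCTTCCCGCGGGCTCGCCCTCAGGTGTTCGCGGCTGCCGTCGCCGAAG
Zfhx3: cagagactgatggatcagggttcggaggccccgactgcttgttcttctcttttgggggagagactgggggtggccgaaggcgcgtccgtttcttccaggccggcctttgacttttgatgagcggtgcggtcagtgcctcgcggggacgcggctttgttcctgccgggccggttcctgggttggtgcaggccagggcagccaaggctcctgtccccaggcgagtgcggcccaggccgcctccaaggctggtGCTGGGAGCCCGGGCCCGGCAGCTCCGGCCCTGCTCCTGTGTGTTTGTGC
Mbnl1: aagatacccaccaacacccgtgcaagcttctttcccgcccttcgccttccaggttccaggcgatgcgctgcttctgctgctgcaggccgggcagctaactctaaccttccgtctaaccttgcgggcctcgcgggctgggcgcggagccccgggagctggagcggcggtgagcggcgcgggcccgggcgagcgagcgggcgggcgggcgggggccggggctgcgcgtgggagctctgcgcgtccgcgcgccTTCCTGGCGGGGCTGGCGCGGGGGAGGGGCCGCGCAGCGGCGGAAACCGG
These windows held 10 CpG dinucleotides at Prkg1, 12 at Esr1, 57 at Cacna1c, 21 at Zfhx3 and 41 at Mbnl1, against a median of 7 over all 32851 RefSeq windows of the same length. Windows with 41 or more CpG made up 3.46% of all, and those with 57 or more 0.152%. On both strands, none of the 5 held the CTCF core, searched as CCA, AG and GGC with 2 bases in each gap (in 2.43% of all windows). None held the estrogen response element, GGTCA and TGACC with 3 bases between them (0.0700%), or the progesterone and glucocorticoid response element, GNACA and TGTNC with 3 bases between them (0.475%). The absence of these letters from a window says nothing of binding elsewhere in the anchor.

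Loops inside a gene body made up a small share of each list and were shorter than other loops. Of the loops over 60 kb, they were 5.45% (5.11 to 5.80) in the knockout, 4.87% (4.46 to 5.32) after progesterone, 4.85% (4.50 to 5.23) in vehicle replicate 2 and 4.43% (3.99 to 4.90) in vehicle replicate 3. Their median length was 120 kb in the knockout and 140 kb in each wild-type list, against 225, 250, 245 and 250 kb for the other loops over 60 kb in the knockout, progesterone, vehicle 2 and vehicle 3 lists. The rule itself bounds this length by that of the gene. Loops of 65 kb, the shortest admitted, numbered 58, 16, 24 and 6 in the same order of lists, and loops at 60 kb, just outside the limit, numbered 86, 46, 50 and 34. Anchors of 5 kb, the finest bins, made up 68.4% of the loops in the knockout, 48.0% after progesterone, 57.2% and 41.3% in vehicle replicates 2 and 3.

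The genes that held such loops were long ones. Of 21631 protein-coding genes, 3451 are long enough to hold 5 kb anchors over 60 kb apart, and 599 of these (17.4%) held a loop in at least 1 list. By list, 472 genes (13.7%) held a loop in the knockout, 304 (8.81%) after progesterone, 382 (11.1%) in vehicle replicate 2 and 252 (7.3%) in vehicle replicate 3. The median length was 274.8 kb for genes with a loop and 116.9 kb for genes of sufficient length without one. The shortest gene with a loop was Aox1, an aldehyde oxidase gene of 76.6 kb, and the next was Igf1, the estrogen-responsive growth factor gene, of 78.8 kb, with 1 loop in the knockout and 1 in vehicle replicate 2. Loops that lay inside overlapping gene models were counted for each, which concerns 1, 4, 4 and 3 loops in the 4 lists, at Cmss1 with Filip1l, Schip1 with Iqschfp, and 3 models on chromosome 18.

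**Figure D1:**
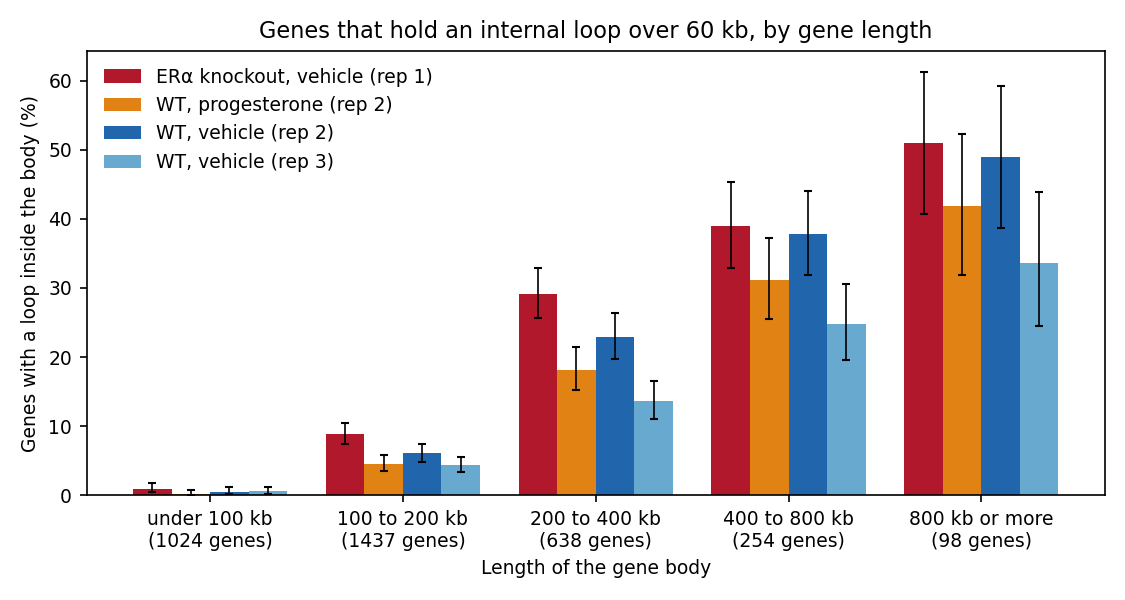
Percentage of protein-coding genes with a loop over 60 kb inside the body (y axis) in 5 classes of gene length (x axis), for the knockout, progesterone, vehicle 2 and vehicle 3 lists. Whiskers are exact 95% intervals for counting error. In each list the share is highest in genes of 800 kb or more, at 51.0%, 41.8%, 49.0% and 33.7%.

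The share of genes with a loop was higher in each longer class up to the longest, in every list. Over all lists it was 1.76% of 1024 genes under 100 kb, 12.2% of 1437 genes of 100 to 200 kb, 36.2% of 638 genes of 200 to 400 kb, 44.9% of 254 genes of 400 to 800 kb and 61.2% of 98 genes of 800 kb or more. A longer body offers more pairs of positions that satisfy the rule, so length is partly built into these shares. Even so, 38 of the 98 genes of 800 kb or more had no loop in any list, and 18 had 10 or more summed over the lists. Among the 30 longest genes, 13 had none. They include Lrp1b, a lipoprotein receptor gene, Rbfox1, a neuronal splicing regulator gene, Csmd3, and the cell adhesion gene Cntn5. Dmd, the dystrophin gene and the longest at 2390 kb, had 1 knockout loop and none in the wild-type lists.

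A few genes held many loops. Most genes with a loop had just 1, namely 302 of 472 in the knockout, 218 of 304 after progesterone, 256 of 382 in vehicle replicate 2 and 192 of 252 in vehicle replicate 3. Genes with 5 or more numbered 34, 9, 20 and 6. Lrmda, the leucine-rich melanocyte differentiation-associated gene (chromosome 14, 22019504 to 23056093), had the most in each list, with 41 in the knockout, 22 after progesterone, 25 in vehicle replicate 2 and 12 in vehicle replicate 3. That was 4.39%, 4.54%, 3.79% and 3.35% of all loops inside genes, and the 10 genes with most held 14.6% to 16.7% of them in the 4 lists.

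**Figure D2:**
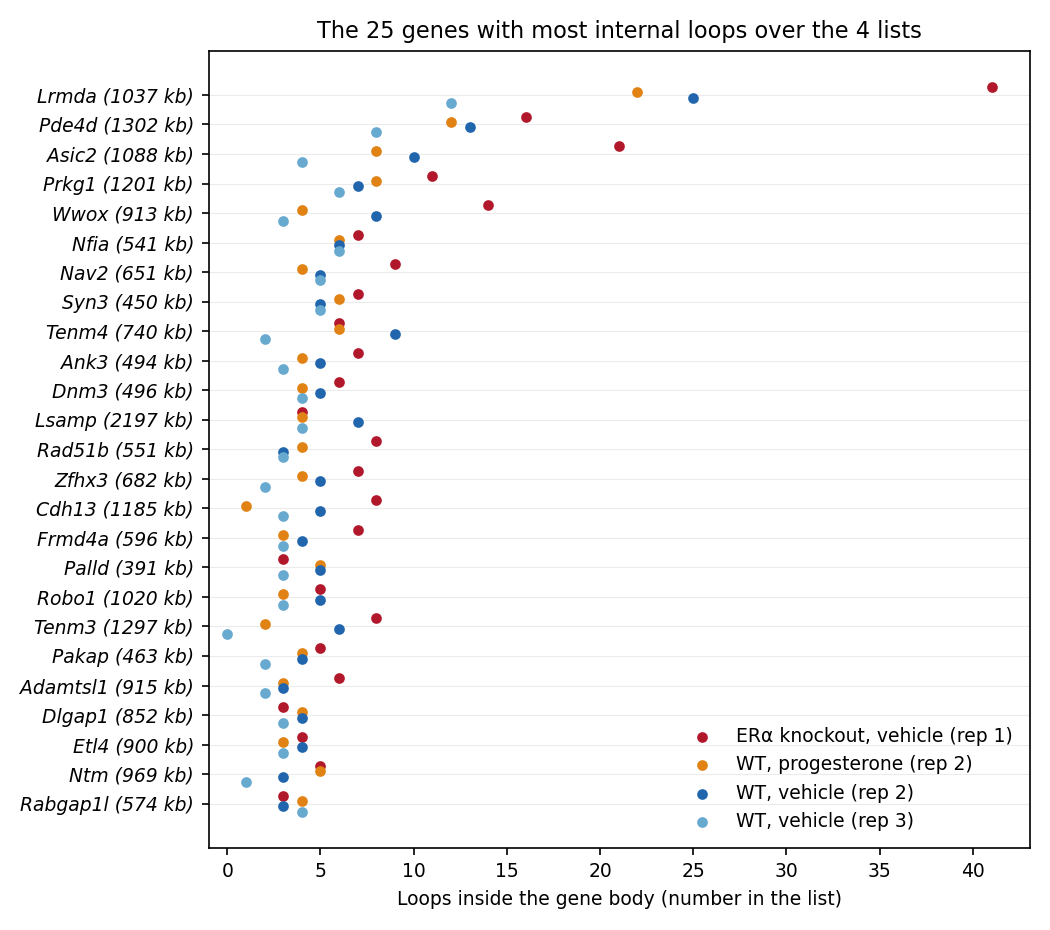
Number of loops inside the gene body (x axis) for the 25 genes with most loops summed over the lists (y axis, gene length in brackets); each point is 1 library. Lrmda is at 41, 22, 25 and 12 in the knockout, progesterone, vehicle 2 and vehicle 3 lists, and in most of these genes vehicle replicate 3 is at or near the lowest value.

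Other genes with many loops follow, namely those with most vehicle 2 loops matched in all 4 lists, and Wwox. Some genes left out here had as many loops summed over the lists, such as Tenm4 with 23 and Dnm3 with 19. Pde4d, a phosphodiesterase gene that ends cAMP signals (1302 kb), had 16, 12, 13 and 8 loops in the knockout, progesterone, vehicle 2 and vehicle 3 lists. Asic2, an acid-sensing ion channel gene, had 21, 8, 10 and 4, and Prkg1, the cGMP-dependent protein kinase gene that mediates smooth muscle relaxation, had 11, 8, 7 and 6. Asic2 thus varied more between lists than Prkg1 did. Wwox, an oxidoreductase gene, had 14, 4, 8 and 3. Nfia, a nuclear factor I transcription factor gene, was the most even of these with 7, 6, 6 and 6 loops. Nav2, neuron navigator 2, had 9, 4, 5 and 5, and Syn3, a synapsin gene, had 7, 6, 5 and 5. Ank3, which encodes the membrane-to-spectrin linker ankyrin-G, had 7, 4, 5 and 3, Frmd4a had 7, 3, 4 and 3, and the Slit receptor gene Robo1 had 5, 3, 5 and 3. Lsamp, an adhesion gene of 2197 kb, had 4, 4, 7 and 4, and Etl4 had 4, 3, 4 and 3.

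Loops within a gene were counted by the sites at which their anchors met. Anchors were merged into sites at a setting of 5 kb, so a site can be wider than a single anchor. In genes with 3 or more loops, a single site was used by at least 50% of the loops in 77 of 93 genes in the knockout, 35 of 37 after progesterone, 52 of 59 in vehicle replicate 2 and 20 of 22 in vehicle replicate 3. With 3 loops this needs only that a pair of them share a site, and it was not set against chance. The 41 knockout loops of Lrmda used 17 sites, and 11 of them met at 22320001 to 22330000, 29.5% of the way into the gene. In Pde4d the busiest site lay near 44% of the gene length in each list (43.8%, 44.6%, 44.4% and 44.2%), with 9 of 16 loops in the knockout, 6 of 12 after progesterone, 5 of 13 in vehicle replicate 2 and 3 of 8 in vehicle replicate 3. Merged sites differed in width between lists, so these counts are not like for like. The Pde4d site ran from 109200001 to 109250000 in the knockout and from 109225001 to 109235000 in vehicle replicate 3. The position of the Lrmda site differed between lists, at 71.2% after progesterone, 54.3% in vehicle replicate 2 and 7.77% in vehicle replicate 3.

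**Figure D3:**
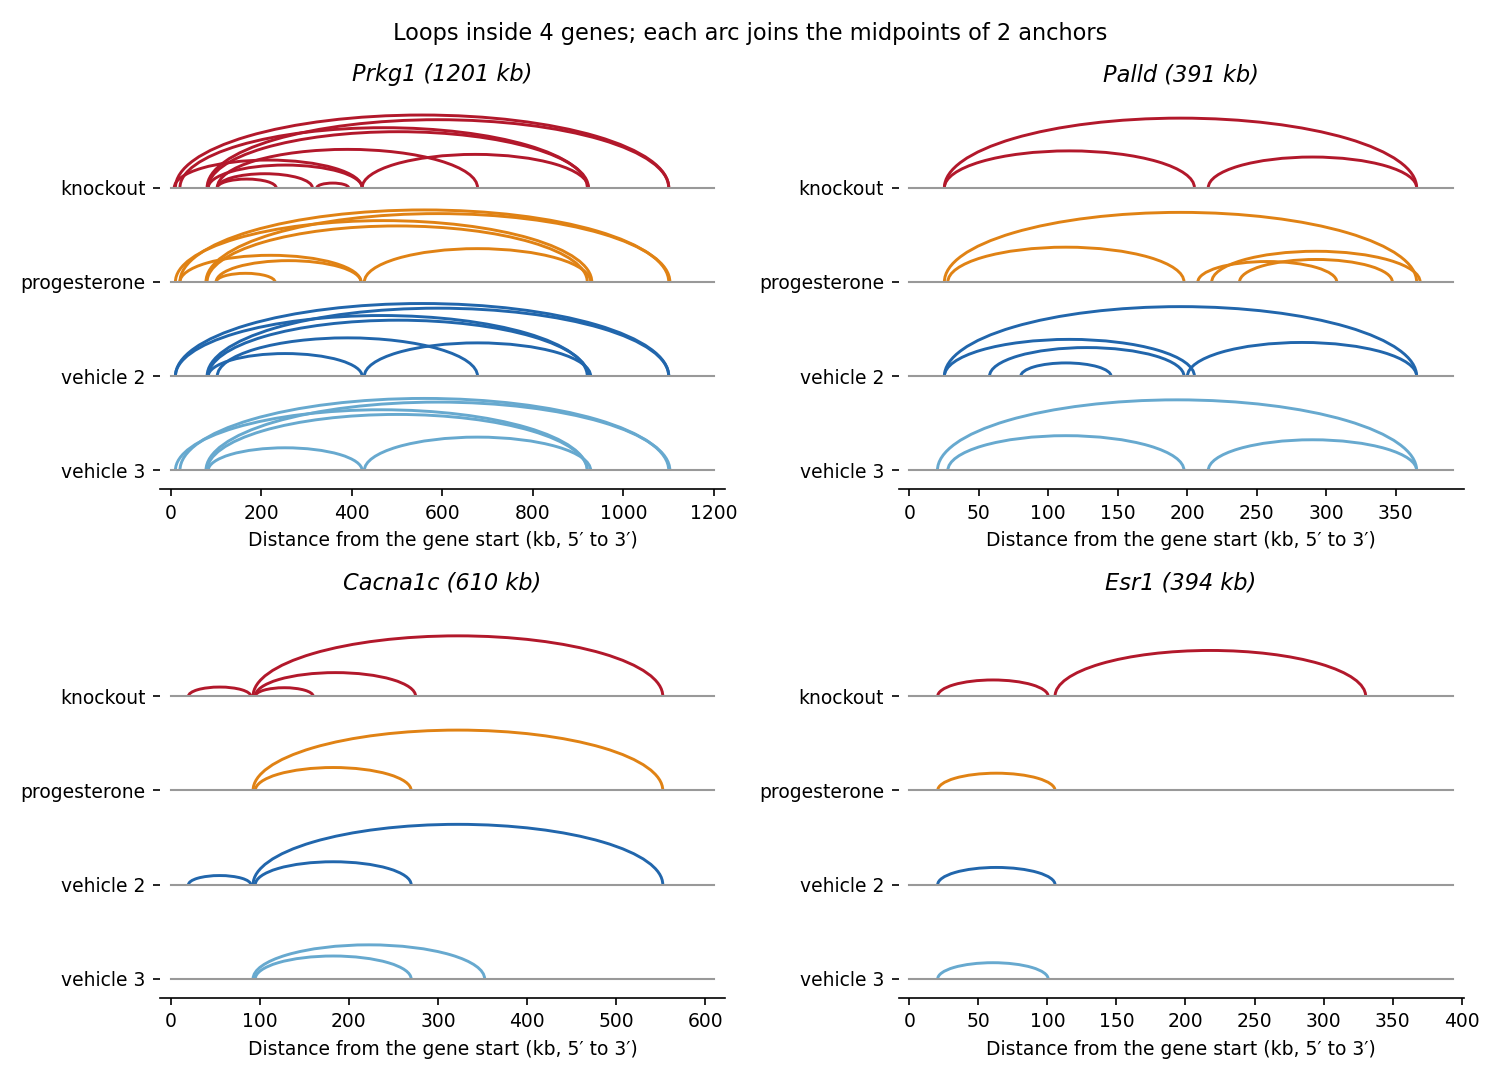
Loops inside Prkg1, Palld, Cacna1c and Esr1 by distance from the gene start in kb (x axis), 1 row for each library; an arc joins the midpoints of 2 anchors and its height grows with length. Prkg1 shows the same long arcs in all rows, Palld shows a 340 to 345 kb arc in all rows, Cacna1c arcs meet at a common site near the start, and Esr1 has a short arc in every row and a long one in the knockout row.

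Prkg1 (chromosome 19, 30564487 to 31765268, minus strand) carried some of the longest loops that recurred. A 1090 kb loop joined 30660001 to 30670000 with 31750001 to 31760000, spanned 90.8% of the gene and was listed with the same bins in the knockout and in vehicle replicate 2. Progesterone and vehicle replicate 3 listed it as a 1080 kb loop to 31740001 to 31750000. In the knockout and vehicle replicate 2 its 5′ anchor lies next to the first start, whose window is printed above. After progesterone and in vehicle replicate 3 that anchor lies more than 10 kb from the start. The first start falls in no anchor in any list. Loops of about 500, 840, 900 to 920 and 1020 kb were also in all 4 lists, and 3 of these loops met at 30825001 to 30850000 in the progesterone list and in both vehicle lists. A 70 kb loop and a 210 kb loop were called in the knockout alone.

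Syn3 and Tmem108 show sets of nested loops that were called again nearly whole. All 5 vehicle 2 loops of Syn3 (chromosome 10, 86048746 to 86498926) were in the 3 other lists, from a 115 kb loop to a 395 kb loop that joins 86065001 to 86070000 with 86460001 to 86465000 and spans 87.7% of the gene. Tmem108, a transmembrane protein gene named after its values were seen, had 3 loops in each list that join 3 sites. Its longest was 265 kb in the knockout, 260 kb after progesterone, 265 kb in vehicle replicate 2 and 260 kb in vehicle replicate 3, and the other two divide that span near its middle. Nfia loops of 70 kb, between 97675001 to 97680000 and 97745001 to 97750000, used identical bins in all 4 lists.

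The longest loops inside a gene reached past 1 Mb. Macrod2, which encodes a mono-ADP-ribosylhydrolase, held a 1750 kb loop in the knockout (140500001 to 140510000 with 142250001 to 142260000, chromosome 2), a 1580 kb loop after progesterone and a 1590 kb loop in vehicle replicate 2, and no loop of that size in vehicle replicate 3. Progesterone and vehicle replicate 2 had the same far anchor as the knockout, and their near anchors lay further in, at 140670001 to 140680000 and at 140660001 to 140670000. Cntnap2, a neurexin family gene, held a 1650 kb loop in vehicle replicate 2 alone. Magi2, a scaffold gene, held a 1175 kb loop after progesterone that was matched in all 4 lists, and the loops that match it do not lie wholly inside the gene. Gpc6, a glypican gene, held 1 loop in each list that spanned over 90% of the gene, of 950 kb in the knockout, 1000 kb after progesterone, 950 kb in vehicle replicate 2 and 1000 kb in vehicle replicate 3. The 950 kb loops were not matched to the 1000 kb ones. Loops over 500 kb numbered 45, 29, 43 and 24.

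The 3 shortest genes with a loop matched in all 4 lists, a choice that builds in a recurring position, were Rab11fip4, Ninj2 and Stk32c. The 5 shortest genes with any loop, from Aox1 to Slco2a1, held theirs in only 1 or 2 lists. Ninj2, a ninjurin adhesion gene of 107 kb, held 1 loop of 80 kb with identical bins in all 4 lists (chromosome 6, 120110001 to 120115000 with 120190001 to 120195000). Stk32c, a kinase gene of 110 kb, held 1 loop of 85 kb with identical bins in the knockout, progesterone and vehicle 2 lists and of 75 kb in vehicle replicate 3. Rab11fip4, a gene of a Rab11 effector, held its only loop in vehicle replicate 2, and the loops that match it in the other lists do not lie wholly inside the gene. Its absence from those lists is thus set by the rule.

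Gene lists were read against the share of genes with a loop among all genes long enough (17.4%) and against the number that the length classes alone would give. Of 33 genes of smooth muscle contraction and the cytoskeleton that are long enough, 20 held a loop, where the rate of each length class gives 10.4. By list they numbered 17 in the knockout, 13 after progesterone, 16 in vehicle replicate 2 and 11 in vehicle replicate 3, and 10 of them held loops in all 4. Of 50 transcription factor genes of mesenchyme and development, 21 held a loop against 14.7 by length, and of 36 growth factor and signalling genes 12 did against 9.15. Matrix and adhesion genes numbered 11 of 34 against 8.78, and steroid receptor and coregulator genes 3 of 15 against 2.62. Long neuronal genes, an outside group for the uterus, numbered 15 of 30 against 18.0. Marker genes of endothelium numbered 1 of 8 against 1.44, of immune cells 1 of 8 against 1.77, and of epithelium 0 of 2 against 0.245. The median number of loops per gene, summed over the lists, was 1 for the smooth muscle genes and 0 for the other 4 functional lists. No test of a list was made, and the lists were written with earlier results of these data known.

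Smooth muscle genes with loops include those of calcium entry, contraction and actin, and so do those without. Long enough but with no loop in any list were Actn1, Itpr1, Lpp, Myh11, Pdlim5, Ppp1r12a, Ppp1r12b, Rock2, Ryr2, Sgcd, Sorbs2, Svil and Vcl. Cacna1c, the pore subunit gene of the L-type calcium channel (chromosome 6, 118587240 to 119197384, minus strand), had 4, 2, 3 and 2 loops in the knockout, progesterone, vehicle 2 and vehicle 3 lists. All of them used an anchor between 119100001 and 119110000. A 175 kb loop from there to 118925001 to 118930000 was in the 3 wild-type lists with identical bins and in the knockout as a 180 kb loop. A 460 kb loop to 118640001 to 118650000 was in the knockout, progesterone and vehicle 2 lists, and vehicle replicate 3 had a 260 kb loop from the same anchor. The internal start printed above, 88.9 kb from the first start, lies in the anchors of 2, 1, 2 and 1 of these loops, and the 175 kb loop has its anchor in the neighbouring bin, 119100001 to 119105000, which does not hold it.

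Palld, the gene of the actin-bundling protein palladin (chromosome 8, 61511431 to 61902707, minus strand), had 3, 5, 5 and 3 loops. A 340 kb loop from 61535001 to 61540000 to 61875001 to 61880000 was listed with identical bins in the knockout, after progesterone and in vehicle replicate 2, and in vehicle replicate 3 it was 345 kb long. Mylk, the myosin light chain kinase gene that starts smooth muscle contraction, had 1 loop of 65 kb in each list, with the same bins in all 4 (chromosome 16, 34900001 to 34905000 with 34965001 to 34970000). The fixed position at Mylk contrasts with Kcnma1, the gene of the large-conductance potassium channel, which had 5 loops in the knockout, 1 after progesterone, 3 in vehicle replicate 2 and 0 in vehicle replicate 3. Dst, the gene of the linker protein dystonin, had 2 loops in each list. Mical3, of a family of actin-oxidising enzymes, had 5, 2, 3 and 1 loops, and Dlc1 had 4, 1, 3 and 1.

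Transcription factor genes with loops were led by Nfia. Zfhx3, a zinc finger homeobox gene, had 7, 4, 5 and 2 loops in the knockout, progesterone, vehicle 2 and vehicle 3 lists. Bnc2, the zinc finger gene basonuclin 2, had 4, 2, 6 and 1, and Tcf4, a basic helix-loop-helix gene, had 6, 2, 3 and 1. Vehicle replicate 3 was the lowest list for these 3 genes, as it was for the total. Rora, a nuclear receptor gene, had 4, 1, 2 and 2, and Rarb, the retinoic acid receptor beta gene, had 4, 2, 1 and 1. In Bnc2 (chromosome 4, 84266804 to 84676029, minus strand), the anchor at 84670001 to 84675000 next to the gene start took part in 3 of 4 knockout loops and 2 of 6 vehicle 2 loops.

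The signalling genes with loops were led by Robo1, described above. Magi1, a junction scaffold gene, had 3, 1, 2 and 0 loops, Robo2 had 2, 1, 2 and 0, and Ror2, a Wnt receptor gene, had 1, 1, 1 and 0. Slit2, which encodes a ligand of the Robo receptors, had 3, 0, 0 and 0 loops. Cdh13, the T-cadherin gene, had 8, 1, 5 and 3. Col23a1, a transmembrane collagen gene (chromosome 11, 51289679 to 51583925), had 3, 3, 5 and 2, and a loop of 240 to 245 kb from its first bins at 51290001 to 51530001 or 51535001 was in all 4 lists. For Ccbe1 the counts were 0, 2, 1 and 0, for Thsd4 0, 1, 2 and 0, for Col12a1 1, 0, 1 and 0, and for the integrin gene Itga9 2, 0, 0 and 0.

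Of the steroid receptor and coregulator genes long enough, only Esr1, Med13l and Nr3c2 held a loop in any of the 4 lists. Esr1 (chromosome 10, 4611989 to 5005633, plus strand) had 2, 1, 1 and 1 loops in the knockout, progesterone, vehicle 2 and vehicle 3 lists. The loop found in all 4 lists starts at 4630001 to 4635000. It ended at 4710001 to 4715000, 80 kb away, in the knockout and vehicle replicate 3, and in the next bin, 85 kb away, after progesterone and in vehicle replicate 2. The internal start printed above, 98.2 kb from the gene start, falls in the anchor of the knockout and vehicle 3 loops only. The further knockout loop joins 4715001 to 4720000 with 4940001 to 4945000, 225 kb away, and was in no other list. The knockout allele alters this gene, so a local change of the locus and the lack of the receptor cannot be told apart there. Med13l, a gene of the Mediator kinase module, had a 140 kb loop with identical bins in all 4 lists and a 110 kb loop in the knockout alone. Nr3c2, the mineralocorticoid receptor gene, had 2, 0, 0 and 0, and Greb1, an estrogen-induced gene, held none.

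Anchors lay throughout the gene body. Strand was known for 458 of the 599 genes. The median loop spanned 36.1% of its gene in the knockout, 38.7% after progesterone, 41.7% in vehicle replicate 2 and 42.4% in vehicle replicate 3, and the median midpoint lay at 50.3% to 51.6% of the gene length in the 4 lists. Both anchors must lie inside the gene and over 60 kb apart, so the rule itself bounds these positions, most of all in shorter genes. With the gene length cut into 10 equal parts, part 1, at the 5′ end, held 12.5% to 13.6% of the anchors, part 3 held 6.87% to 8.61% and part 10 held 11.1% to 13.9%. Loops with neither anchor within 10 kb of a gene end made up 76.5%, 76.6%, 76.3% and 72.5%. Gene length matters here: in the knockout, 46.4% of loops in genes of 100 to 200 kb had an anchor within 10 kb of the 5′ end. In genes of 800 kb or more it was 2.67%.

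Within 10 kb of the gene ends, more loops lay at the 5′ end than at the 3′ end in each library over all genes, but not in each class of longer genes. An anchor lay within 10 kb of the 5′ end in 16.4% of loops in the knockout (13.8 to 19.3), 15.2% after progesterone, 16.0% in vehicle replicate 2 and 16.8% in vehicle replicate 3, and within 10 kb of the 3′ end in 8.89%, 10.0%, 9.83% and 13.7%. The difference was 7.55, 5.14, 6.17 and 3.09 percentage points, positive in 4 of 4 libraries, with a mean of 5.49. The exact 2-sided sign-flip permutation test over the 4 libraries gave p = 0.125, the smallest that 4 libraries allow, so no difference tested this way can pass the usual threshold, and the Benjamini-Hochberg adjusted value over the 3 tests of this kind was also 0.125. The difference depends on the distance chosen: within 20 kb of the ends it was 3.37, -1.03, -0.19 and 1.72 points in the knockout, progesterone, vehicle 2 and vehicle 3 lists, with a mean of 0.967 (exact permutation p = 0.5). In genes of 200 kb or more, with 10 kb, the mean was 2.19. In genes of 400 to 800 kb the 5′ share was the lower after progesterone (5.36% against 8.04% at the 3′ end) and in vehicle replicate 3 (4.65% against 10.5%). Genes of known strand with an anchor within 10 kb of the start in all 4 lists numbered 16. They include Adcy5, an adenylyl cyclase gene, App, the amyloid precursor gene, Col27a1, Plxna2, a semaphorin receptor gene, and Tjp1, a tight junction scaffold gene.

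**Figure D4:**
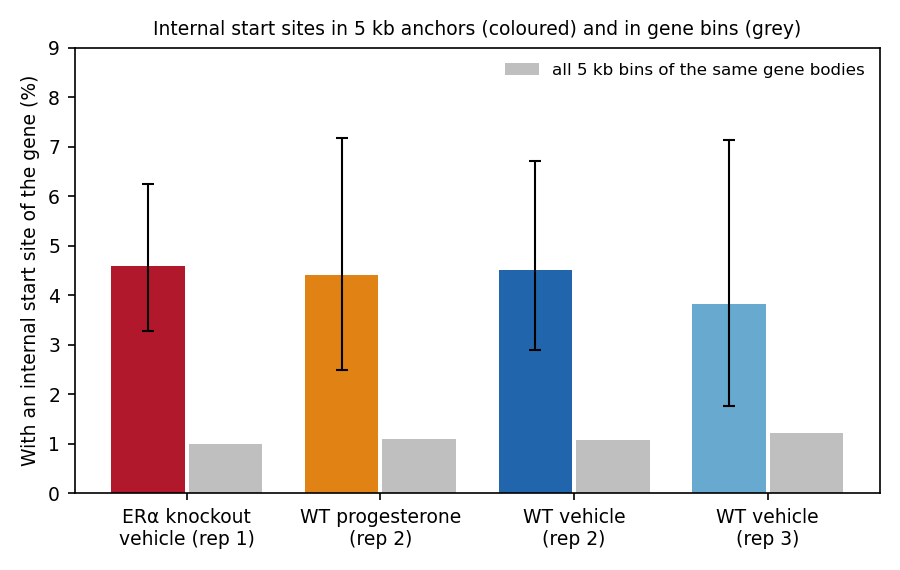
Percentage of distinct 5 kb anchors inside genes of known strand that hold an annotated start of the same gene more than 10 kb from its first start (coloured, exact 95% intervals), and the same percentage of all 5 kb bins of those gene bodies (grey), for the 4 libraries. Anchors are at 4.59%, 4.41%, 4.52% and 3.83%, and bins at 1.00% to 1.21%.

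A larger share of anchors than of all bins of those gene bodies, anchors included, held an internal start site of the gene. Internal starts are annotated starts of the gene more than 10 kb from its first one. Only loops in genes of known strand entered here, counted once for each gene that holds them. They lay in an anchor of 83 of 742 loops in the knockout (11.2%), 36 of 389 after progesterone (9.25%), 54 of 519 in vehicle replicate 2 (10.4%) and 31 of 291 in vehicle replicate 3 (10.7%). Among 5 kb anchors alone, 4.59% (3.27 to 6.25) held one in the knockout, 4.41% (2.49 to 7.17) after progesterone, 4.52% (2.89 to 6.70) in vehicle replicate 2 and 3.83% (1.77 to 7.15) in vehicle replicate 3, against 1.00%, 1.09%, 1.08% and 1.21% of the 5 kb bins of the same gene bodies. The anchors were higher in 4 of 4 libraries, by a mean of 3.24 points (exact sign-flip permutation p = 0.125, Benjamini-Hochberg adjusted 0.125). The same genes enter several lists, so the 4 values are not fully independent.

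In 11 genes of known strand the same internal start lay in an anchor in all 4 lists. At Cacna1c the start at 119108495 lay in the anchors of 2 loops in the knockout, 1 after progesterone, 2 in vehicle replicate 2 and 1 in vehicle replicate 3. At Mbnl1, a splicing regulator gene of muscle, the start at 60501179, 28.6 kb into the gene, lay in an anchor of a 100 kb loop with identical bins in all 4 lists (60500001 to 60510000 with 60600001 to 60610000). The Zfhx3 start at 108714644, 435.3 kb into the gene, lay in anchors of 2, 1, 1 and 1 loops in the knockout, progesterone, vehicle 2 and vehicle 3 lists. The other 8 genes are Afap1l2, Arhgef3, Cgnl1, Elmo1, Eml1, Patj, Pde10a and Pld1. Their internal windows held 4 to 30 CpG, a range that overlaps the median of 7 over all windows. Only the Eml1 window held the progesterone and glucocorticoid response element, and none of the 11 held the CTCF core or the estrogen response element.

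**Figure D5:**
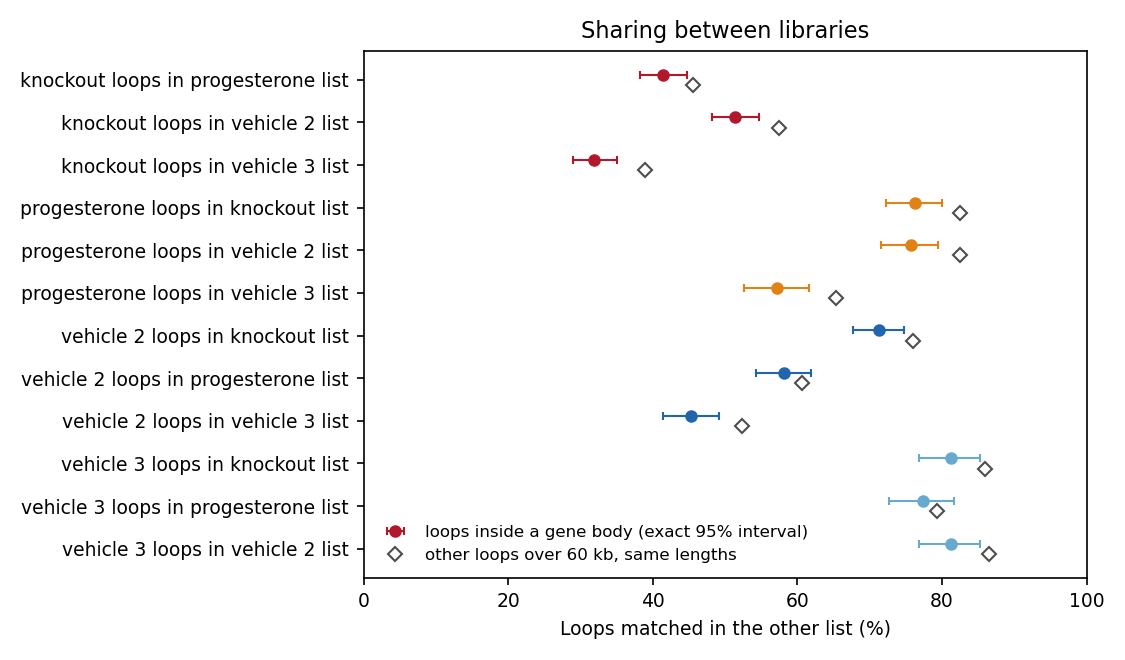
Percentage of loops of 1 list matched in another (x axis) for the 12 ordered pairs of lists (y axis); points are loops inside a gene body with exact 95% intervals, and open diamonds are the other loops over 60 kb weighted to the same lengths. The points lie left of the diamonds in all 12 pairs.

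Loops inside a gene body were found again in other libraries somewhat less often than other loops of like length. A match needed both anchors to overlap those of a loop in the other list after 10 kb was added to each side. The share of knockout loops found in vehicle replicate 2 was 51.4%, of progesterone loops 75.7%, and of vehicle 3 loops 81.3%, while 45.2% of vehicle 2 loops were in vehicle replicate 3. Against other loops over 60 kb weighted to the same lengths, these loops were matched less often in all 12 ordered pairs. The mean difference was -5.73 percentage points for knockout loops, -7.05 for progesterone loops, -4.76 for vehicle 2 loops and -3.93 for vehicle 3 loops, and -5.37 over the 4 (exact 2-sided sign-flip permutation p = 0.125, the smallest possible, and adjusted 0.125). For loops over 100 kb the mean difference was -2.44 points. Each pair of lists enters in both directions, so the 12 pairs and the means of the 4 libraries are not independent.

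Between 234 and 243 loops of each list were matched in all 4. They were 243 (26.0%) of the knockout loops, 239 (49.3%) after progesterone, 241 (36.6%) in vehicle replicate 2 and 234 (65.4%) in vehicle replicate 3, against 31.0%, 57.5%, 41.7% and 70.4% of the other loops weighted by length. Loops in no other list numbered 391 (41.9%) in the knockout, 63 (13.0%) after progesterone, 128 (19.4%) in vehicle replicate 2 and 30 (8.38%) in vehicle replicate 3. Among the other loops weighted by length, these shares were 35.2%, 7.28%, 15.1% and 4.98% in the same order. The share in all 4 lists moved with the bin size. The shares in all 4 lists, with anchors of 5, 10 and 25 kb, were 31.6%, 14.0% and 13.2% in the knockout, 66.5%, 32.6% and 35.2% after progesterone, 52.0%, 17.5% and 10.2% in vehicle replicate 2, and 79.1%, 57.3% and 51.7% in vehicle replicate 3. In each list the share was highest for 5 kb anchors. In vehicle replicate 2, genes with 1 loop had 34.8% of their loops in all 4 lists (28.9 to 40.9) and genes with 5 or more had 38.8% (30.9 to 47.2), and these intervals overlap.

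At the level of genes, 176 of the 599 held loops in all 4 lists and 235 in a single list. Of the 235, 135 were in the knockout alone, 25 after progesterone alone, 50 in vehicle replicate 2 alone and 25 in vehicle replicate 3 alone. Of the 304 genes with a loop after progesterone, 83.6% also held one in vehicle replicate 2, and of the 382 genes of vehicle replicate 2, 66.5% held one after progesterone. For the knockout, 65.0% of its 472 genes held one in vehicle replicate 2, and 80.4% of the vehicle 2 genes held one in the knockout.

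The progesterone library was set against the vehicle lists for loops that differ 1 h after the hormone. The vehicle lists shared 298 loops inside genes, and the progesterone list lacked 41 of these (13.8%, 10.1 to 18.2), near the 14.6% for all loops over 60 kb. Conversely, 95 of its 485 loops matched no vehicle loop (19.6%, 16.1 to 23.4), against 13.8% for all loops over 60 kb. As a baseline, 8.30% of the loops that vehicle replicate 3 shared with progesterone were missing from vehicle replicate 2, and 30.8% of those that vehicle replicate 2 shared with progesterone were missing from vehicle replicate 3. The progesterone value of 13.8% lies between these, and the part that the short vehicle 3 list has in the upper one was not tested. For 13 of the 41 (31.7%) a progesterone loop lay within 25 kb of both anchors. When vehicle replicate 2 was left out, the shares were 22.6% and 42.9%, beside 20.5% and 35.2% for all loops over 60 kb. When vehicle replicate 3 was left out, the share lacking after progesterone was 41.9%, beside 39.5%.

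The genes with most progesterone loops in neither vehicle list were Lrmda with 4 of 22, Prkg1 with 3 of 8, Ntm with 3 of 5 and Rgl1 with 3 of 4. Over all progesterone loops inside genes the share was 95 of 485 (19.6%). A further 8 genes, with Nfia and Rad51b among them, had 2 each. Ntm, the adhesion gene neurotrimin, had 5 loops after progesterone and 5 in the knockout, against 3 and 1 in vehicle replicates 2 and 3. Rgl1, a Ral exchange factor gene, had 4 after progesterone and 4 in the knockout, against 2 and 1 in the vehicle lists. For both genes the total after progesterone equals that in the knockout, though equal totals need not be the same loops. The knockout list is the longer, and a cause was not tested. Lrmda, Prkg1, Nfia, Nav2, Wwox and Dnm3, a dynamin gene, each had 1 loop in both vehicle lists that was not called after progesterone. Genes that held loops in the knockout and both vehicle lists but not after progesterone numbered 14, with Mast4 (5 in the knockout, 0 after progesterone, and 2 and 1 in vehicle), Dab1 and Mitf among them, chosen after their values were seen. Beside these 14, 176 genes held loops in all 4 lists. Genes with a loop after progesterone alone numbered 25 of the 304 with a loop after progesterone. Of these 25, Arl15 had 2 loops and the others 1.

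The knockout library was set against the vehicle lists for loops that differ without ERα. Its list lacked 28 of the 298 loops that the vehicle lists shared (9.40%, 6.33 to 13.3), near the 10.5% for all loops over 60 kb. Conversely, 425 of its 934 loops matched no vehicle loop (45.5%, 42.3 to 48.8), against 37.6% for all loops over 60 kb. As a baseline, 9.73% of the loops that vehicle replicate 3 shared with the knockout were missing from vehicle replicate 2, and 44.0% of those that vehicle replicate 2 shared with the knockout were missing from vehicle replicate 3. For 12 of the 28 (42.9%) a knockout loop lay within 25 kb of both anchors. With vehicle replicate 3 as the only vehicle list, the shares were 18.7% and 68.1%, beside 15.0% and 59.5% for all loops over 60 kb. With vehicle replicate 2 as the only one, the share lacking in the knockout was 28.7%, beside 26.0%. The knockout list is also the longest, and the part that its length has in these counts was not tested.

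Knockout loops in neither vehicle list were counted by gene. Lrmda had 19 such loops of its 41, Asic2 13 of 21, Wwox 9 of 14 and Pde4d 7 of 16. Over all knockout loops inside genes they were 425 of 934 (45.5%), so genes with many loops rank high by number alone. Another 4 genes had 5 each. They were Nav2 (of 9), Rad51b, a gene of homologous recombination (of 8), Tenm3, a teneurin adhesion gene (of 8), and Hdac9 (of 5). Wwox had 14 loops in the knockout, against 4 after progesterone and 8 and 3 in vehicle replicates 2 and 3, and Rad51b had 8 in the knockout, against 4, 3 and 3. Tenm3 had 8 in the knockout, against 2, 6 and 0. The 5 knockout loops of Hdac9, a class IIa histone deacetylase gene of 870 kb, were in no other list, and it held 0 loops in each wild-type list. For 3 of them the anchor nearer the gene start lay between 34650001 and 34660000 on chromosome 12, and for the other two it lay at 34525001 to 34530000. Besides Hdac9 and Slit2, Arhgap15 and Cntnap5a had 3 loops in the knockout and none elsewhere, and these 4 were named after their values were seen. A gene with several loops in 1 list alone also occurred in vehicle. Ext1 had 4 loops in vehicle replicate 2 and 0 in each other list, though 1 of the 4 was matched in all 4 lists. Pde4d, Nfia, Nav2, Dnm3, Lsamp and Dlgap1, a postsynaptic scaffold gene, each had 1 loop in both vehicle lists that was not called in the knockout.

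In the other direction, 11 genes held loops in all 3 wild-type lists and none in the knockout list, which is the longest. Beside them, 176 genes held loops in all 4 lists. Genes that only 1 wild-type list lacked occurred too. Those that only the progesterone list lacked numbered 14. Those that only a vehicle list lacked were not counted, but examples are Akap13 and Tenm3. Akap13 had 3, 1, 0 and 1 loops in the knockout, progesterone, vehicle 2 and vehicle 3 lists, and Tenm3 had 8, 2, 6 and 0. The 11 genes are thus not particular to the knockout in this respect. Kif26b, a kinesin family gene (chromosome 1), had 0 in the knockout, 1 after progesterone and 2 in each vehicle list, and 1 of these loops, of 140 kb from 178700001 to 178840001, had identical bins after progesterone and in vehicle replicate 3. Nrg1, the growth factor gene neuregulin 1, had 0 in the knockout, 1 after progesterone, and 3 and 1 in vehicle replicates 2 and 3, and a loop of 200 to 210 kb was matched in the 3 wild-type lists and not in the knockout. Pcdh15, Ano4, Lhfpl3, Mcph1 and Opcml are others. Schip1 is a further one, but its 4 loops also lie inside Iqschfp, which had 1 knockout loop. The remaining 3 are overlapping models on chromosome 18 that share 1 loop. Neither Kif26b nor Schip1 had a loop shared by the vehicle lists that the knockout lacked. The 11 genes were chosen after their values were seen. Loops that lie only partly inside them were not counted, such as the knockout loop that matched the 170 kb loop of Kif26b in vehicle replicate 3.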

How the data were processed

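Hi-C loops were taken from 4 libraries of whole mouse uterus; per the labels' protocols, an Arima kit was used. The authors deposited 1 list of anchor positions per library. Per the submitters' processing notes, the genome is mm10 and Juicer 1.5.6 was run. Loop caller and thresholds were not given in the sources used here. Starts count from 0 in the deposited lists and were written from 1.

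Gene bodies came from RefSeq (GRCm38.p6). Start sites and strand came from the RefSeq table of start windows, which gave strand for 2677 of the 3451 genes long enough. Distance is that between anchor midpoints. A loop was matched when both anchors, with 10 kb added to each side, overlapped those of a loop in the other list. Other loops over 60 kb were weighted to the same loop lengths. Libraries were grouped by the labels. Sign-flip permutation tests over the 4 libraries were exact, and their p-values measure only the spread between these libraries.

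The loops and gene lists were chosen with earlier results of these data known. The genes named were the 12 with most vehicle 2 loops matched in all 4 lists, up to 6 of each functional list, up to 6 per direction of each comparison, the 3 genes with the longest loops, the 3 shortest genes with a loop in all 4 lists, Esr1 and Greb1. Ties went to the gene with more loops in all. All other genes in the text were named after their values were seen. Scripts were tested on simulated data. Tables were made with pandas 2.3.3 and numpy 2.4.6 in Python 3.11.15, intervals with scipy 1.17.1, adjusted p-values with statsmodels 0.14.6, and figures with matplotlib 3.10.9. Contact counts, and so relative depth, were not used here.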

Additional observations from a re-analysis of the deposited data

How the results depend on the processing

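The counts depend on the definition of a loop inside a gene. With distances over 100 kb, the knockout count of 934 became 566 and the genes in any list 368, against 599. With no lower limit on distance, loops numbered 1656 in the knockout, 753 after progesterone and 1070 in vehicle replicate 2, and genes 1034. With only anchor midpoints inside the gene, vehicle replicate 2 had 993 loops, and 899 genes held loops in any list and 275 in all 4, against 176. Among 5 kb anchors alone there were 233 loops after progesterone, 377 in vehicle replicate 2, 148 in vehicle replicate 3 and 86 genes in all 4. Among 10 kb anchors alone there were 242, 181, 223 and 150 loops in the knockout, progesterone, vehicle 2 and vehicle 3 lists, 351 genes in any list and 28 in all 4.

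Matching depends on the added width. With 0 kb added, 35.9% of knockout, 53.2% of progesterone and 53.6% of vehicle 3 loops were in vehicle replicate 2, and 30.8% of vehicle 2 loops in vehicle replicate 3. With 25 kb added these shares were 58.2%, 83.9%, 88.5% and 52.2%. Over 100 kb, 59.2% of knockout loops were in vehicle replicate 2. With 5 kb anchors in both lists, that share was 42.7%, and 32.4% of vehicle 2 loops were in vehicle replicate 3. Vehicle loops not called after progesterone were 30.05% with 0 kb added, and progesterone loops in neither vehicle list 37.1% with 0 kb and 13.2% with 25 kb. For the knockout, vehicle loops not called were 32.5% with 0 kb, 6.10% with 25 kb and 4.10% with 5 kb anchors. Knockout loops in neither vehicle list were 58.5% with 0 kb, 38.7% with 25 kb, 37.5% over 100 kb and 55.6% with 5 kb anchors. Leaving out 1 vehicle library gave 22.6% to 41.9% and 24.3% to 42.9% for progesterone, and 18.7% to 28.7% and 48.6% to 68.1% for the knockout. The causes were not tested, beyond fewer loops or lists entering.

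Other settings were chosen after seeing the data. With weights for bin size too, the difference in sharing was -4.57 points, and without Lrmda -5.48. In genes of 200 kb or more the excess of loops near the 5′ end was 2.19 points. Over all settings, 47 checks of main values moved and 69 did not. Counts and shares could only move or stay the same. Only the 3 differences tested by sign flip could reverse, and their means did not. Near the gene ends, the 20 kb difference was still negative in 2 libraries (mean 0.967 points). Of values of single genes, 97 moved and 197 did not. No paired analysis was possible because the groups share at most 1 replicate number and no test between them was made. Depth is unknown, so it cannot be said which loops a library could have shown.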
